A study of Mus musculus with 4 samples.

Results

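The BCL2 family holds the proteins that decide whether a cell opens the outer membrane of its mitochondria and dies by apoptosis. The 10 genes described here were chosen by symbol and role, out of 24421 genes listed in each of 4 RNA sequencing libraries. They are 4 pro-survival genes (Bcl2, Bcl2l1, Mcl1 and Bcl2a1b), the 2 effectors Bax and Bak1, and 4 BH3-only genes (Bcl2l11, Bbc3, Pmaip1 and Bid). Wild type C57BL/6 mice (Usp25+/+) gave libraries 139 and 140, and mice of the same strain without the deubiquitinase gene Usp25 (Usp25-/-) gave libraries 826 and 850, each library named by its animal. By their labels all 4 animals were females of 8 weeks treated with 2.5% dextran sulfate sodium (DSS), which injures the colon epithelium, for 5 days, with 2 days of water after it, and the tissue was a segment of distal colon. No untreated animal was analysed here, so the treatment is shared by both genotypes, and the sources used here do not give the part of Usp25 that was removed. The values are taken as FPKM, in which fragments are divided by transcript length and by the mapped total of the library, a scale per length on which levels of different genes can be compared.

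As background, BAX and BAK1 assemble into pores in the outer mitochondrial membrane, which release cytochrome c and start the caspases. BCL2, BCL-XL (from Bcl2l1), MCL1 and A1 (from the Bcl2a1 genes) bind and restrain them, while the BH3-only proteins BIM (from Bcl2l11), PUMA (Bbc3), NOXA (Pmaip1) and BID respond to stress by occupying the pro-survival proteins or by activating the effectors. MCL1 and A1 are short-lived proteins, neutrophils are known to depend on MCL1, and A1 is a target of NF-kB.

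The short BH3 segment is what the pro-death members share with most of their inhibitors, and the bases that encode its core are shown because the rule did not use them. The core was searched in the translated GENCODE vM1 transcripts (mouse build mm9) as a leucine, 3 further residues, a glycine or alanine, and an aspartate. Each stretch below covers 30 coding bases, 5′ to 3′ in the sense of the transcript, and the capitals mark the codons of the leucine and of the last 2 core residues.

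Bcl2: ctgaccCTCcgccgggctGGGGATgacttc
Bcl2l1: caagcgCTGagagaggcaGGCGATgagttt
Mcl1: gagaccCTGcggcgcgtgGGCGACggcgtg
Bax: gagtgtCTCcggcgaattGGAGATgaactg
Bak1: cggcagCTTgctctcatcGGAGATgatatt
Bcl2l11: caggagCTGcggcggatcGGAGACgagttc
Bbc3: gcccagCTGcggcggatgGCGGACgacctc
Bid: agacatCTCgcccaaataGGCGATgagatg

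The core occurred at 1 place in each of these 8 proteins, for example at residue 94 of 236 in Bcl2, 194 of 331 in Mcl1 and 150 of 196 in Bcl2l11. The translated Pmaip1, of 103 residues, matched at 2 places, starting at residues 27 and 78, and Bcl2a1b, of 172 residues, at 0 places. In Bbc3 the alanine codon GCG stood where the other 7 stretches had a glycine codon. A missing match says only that these letters are not in the translated protein.

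Bcl2a1b is a member of a group of near-identical mouse genes on chromosome 9, and the first 60 coding bases of its copies are shown because they bear on how its value can be read. Capitals mark the 6 positions at which the 3 copies differ, out of 12 such positions in the 519 coding bases.

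Bcl2a1b: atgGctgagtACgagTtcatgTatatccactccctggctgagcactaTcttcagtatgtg
Bcl2a1a: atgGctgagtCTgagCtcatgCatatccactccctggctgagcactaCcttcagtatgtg
Bcl2a1d: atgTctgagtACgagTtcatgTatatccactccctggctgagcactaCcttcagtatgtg

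The coding bases of Bcl2a1b were 98.8% identical to those of Bcl2a1d and 97.9% identical to those of Bcl2a1a. Of the 718 windows of 100 bases in the Bcl2a1b transcript, the read length in the labels, 222 (30.9%) occurred whole in another copy. Bcl2a1b also shared 401 of its 817 exon bases with the annotated gene Mthfs on the same strand. The sources used here do not give how the authors' counting split reads among these genes, so the value of each copy is uncertain.

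The transcripts did not match the labelled tissue and sex, and library 139 stood apart from the other 3. Genes above 0 FPKM numbered 20556 in 139, against 15603 in 140, 17242 in 826 and 15805 in 850. Of 10 listed colon epithelium genes, 6 stayed under 1 FPKM in every library, with Muc2, the colonic mucin, at no more than 0.193 and Slc26a3, a chloride exchanger, at no more than 0.124 FPKM and Cdx1 and Aqp8 listed at 0. The 10 summed to 12.2 to 126 FPKM, highest in 826. Krt20, at 3.11 to 52.4 FPKM, and Lgals4, at 7.04 to 70.6 FPKM, were detected in all 4 libraries and were higher in Usp25-/- without overlap, by 2.18 (SE 0.88) and 2.31 (SE 0.49) on the log2 scale, each at a limma adjusted p of 0.960. The 8 listed lung epithelium genes had library medians of 124 to 179 FPKM. Xist did not exceed 0.11 FPKM, and the Y-linked Ddx3y was at 12.7 FPKM or above. The 14 listed neutrophil genes found in the files summed to 43446 FPKM in Usp25+/+ 139, against 829 in Usp25+/+ 140, 2326 in Usp25-/- 826 and 1364 in Usp25-/- 850, with Camp listed at 0 in 140 and Elane in 850. Usp25 itself measured 38.5 FPKM in 139 and 16.6 in 140, against 2.65 in 826 and 1.71 in 850. Its log2 fold change was -3.07 (SE 0.47) at a limma adjusted p of 0.960, so even Usp25 was not called. In bulk RNA fewer cells of a type and less RNA per cell cannot be told apart. The values below are therefore given for libraries labelled by genotype and not as measurements of colon.

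Pro-survival transcripts made up most of the family in all 4 libraries, and mainly through Bcl2a1b and Mcl1. The 4 pro-survival genes took 88.8% and 78.4% of the summed FPKM of the 10 genes in Usp25+/+ 139 and 140, and 81.7% and 78.1% in Usp25-/- 826 and 850. The means were 83.6 ± 7.33% in Usp25+/+ and 79.9 ± 2.56% in Usp25-/- (SD, n = 2 each), a difference smaller than the spread between the Usp25+/+ libraries. Bax and Bak1 together took 5.40%, 16.1%, 13.4% and 15.4% in 139, 140, 826 and 850, lowest in 139. The 4 BH3-only genes took 4.84% to 6.46%, and their genotype means of 5.62% and 5.65% were close together. Counting all Bcl2a1 copies with Bcl2a1b, the pro-survival share was 83.5% to 92.0%.

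**Figure D1:**
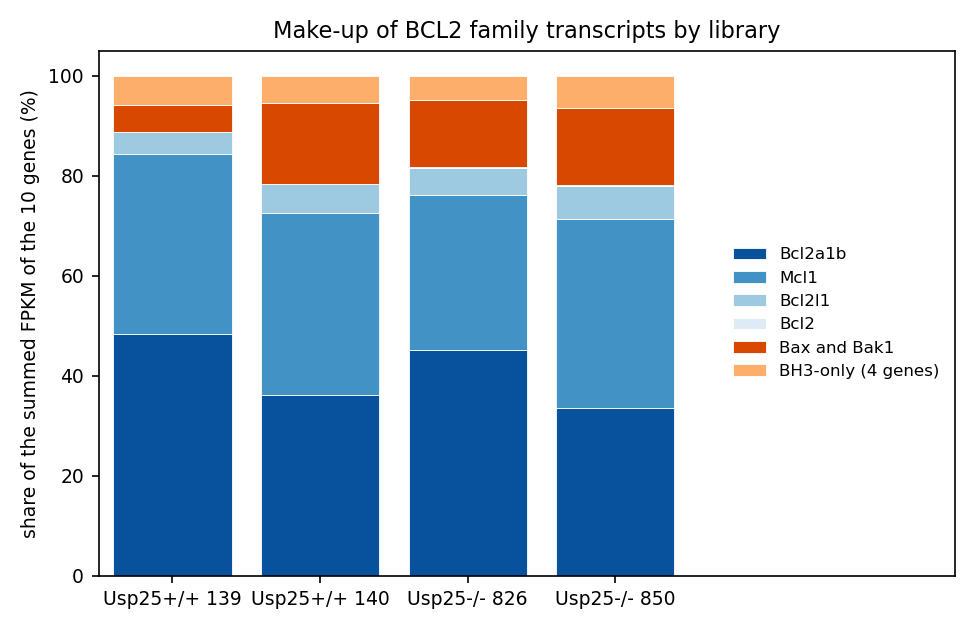
Share of each gene or class in the summed FPKM of the 10 BCL2 family genes, as stacked bars for each library (y axis in percent, from 0 to 100). Bcl2a1b and Mcl1 together fill 71.3% to 84.4% of every bar, and Bax with Bak1 fill 5.40% in library 139 against 13.4% to 16.1% in the other 3.

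Levels spanned more than 2 orders of magnitude, from Bcl2a1b with a mean of 452 FPKM over the 4 libraries and Mcl1 with 372 FPKM down to Bbc3 with 2.21 and Bcl2 with 1.55 FPKM. Between them came Bax at 93.1, Bcl2l1 at 54.9, Bcl2l11 at 24.5, Pmaip1 at 21.6, Bak1 at 20.7 and Bid at 11.1 FPKM. Of the 9 pairs of neighbours in this order, the ranges over libraries were separate in 2, Mcl1 above Bax and Bid above Bbc3. The ranges of Bcl2a1b and Mcl1 overlapped, with Bcl2a1b the higher in 139 and 826 and Mcl1 in 140 and 850. Among all 24421 listed genes Bcl2a1b ranked 60th in library 139 and between 200th and 291st in the others. Mcl1 ranked 91st in library 139 and between 257th and 301st in the others.

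**Figure D2:**
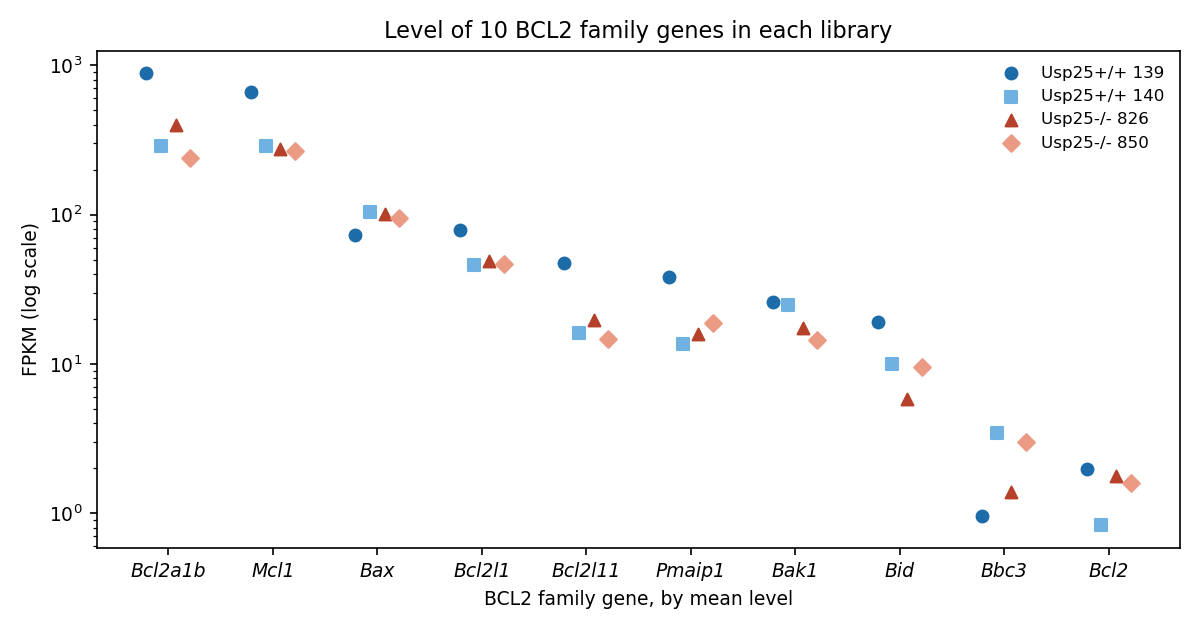
FPKM of the 10 genes (log y axis) in each library, 1 point per library, ordered by mean level. Library 139 is the highest point for 8 of the 10 genes and the lowest for Bax and Bbc3.

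No member passed the test between the genotypes. Limma on log2(FPKM + 1) called 0 of the 10 members and 0 of 12011 tested genes (0%) at a Benjamini-Hochberg adjusted p of 0.05, and the adjusted p of the members was 0.960 to 0.993. At an unadjusted p of 0.05 it called 0 members, against 375 genes (3.12%) in all, and without library 140 it called 6 members, against 2593 genes in all. All 10 members passed the filter of a mean of 1 FPKM, 7 of them with a negative log2 fold change, where 46.5% of all tested genes were negative. Their median log2 fold change of Usp25-/- over Usp25+/+ was -0.52, beside 0.03 over all tested genes. Without library 139 the median was -0.01, with 5 members higher and 5 lower, and without library 140 it was -0.91. In 3 members the genotypes did not overlap with Usp25-/- lower (14.7% of all tested genes), and in 0 members with Usp25-/- higher (19% of all tested genes). Library 139 held the highest value of 8 of the 10 members, where it held the highest value of 29.9% of all tested genes. With 2 libraries against 2, the smallest two-sided p that an exact permutation test of 1 gene allows is 0.333.

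**Figure D3:**
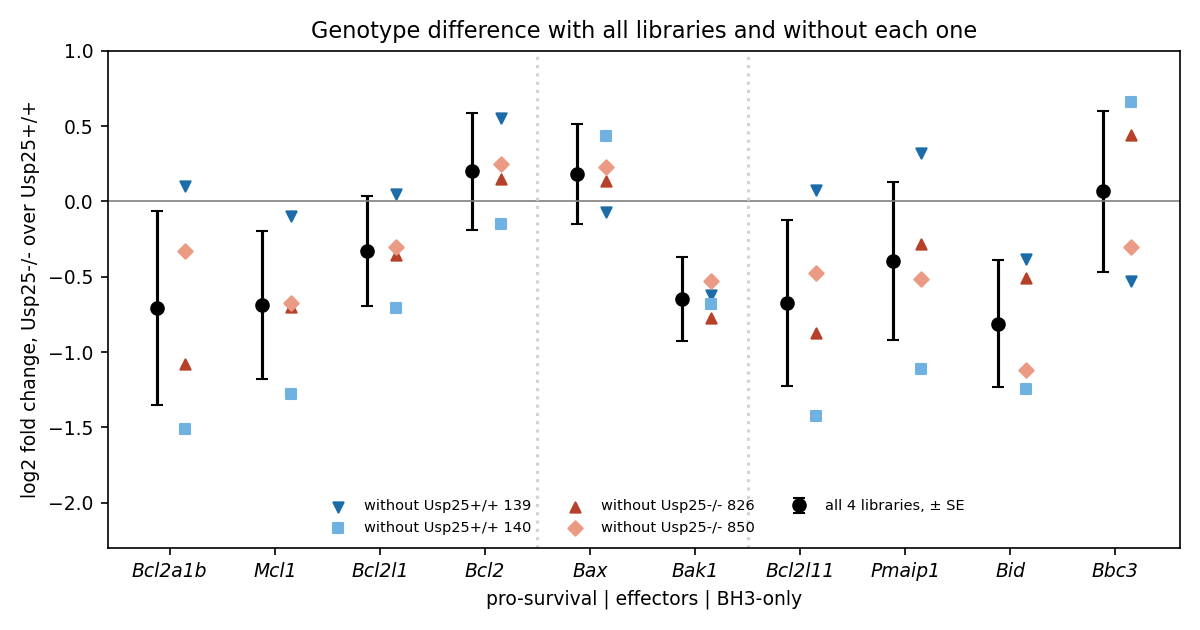
Log2 fold change of Usp25-/- over Usp25+/+ on the log2(FPKM + 1) scale (y axis) for each gene, grouped by role: black points with bars of ± 1 SE use all 4 libraries, and coloured points leave out the named library. Bak1, Bid and Mcl1 are below 0 in all 5 fits, while Bcl2a1b, Bcl2l1, Bcl2l11 and Pmaip1 cross to above 0 without library 139.

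Among the pro-survival genes, Bcl2a1b and Mcl1 varied mainly through library 139. Bcl2a1b, on mm9 chromosome 9 (bases 89094047 to 89102665, plus strand), measured 883 FPKM in Usp25+/+ 139 and 288 in 140, against 400 in Usp25-/- 826 and 238 in 850. The genotypes overlapped, since 826 lay above 140. Its log2 fold change was -0.71 (SE 0.64), which became 0.10 without 139, -1.51 without 140, -1.08 without 826 and -0.33 without 850. Mcl1, on chromosome 3 (bases 95462643 to 95467099, plus strand), measured 657 FPKM in 139 and 289 in 140, against 273 in 826 and 268 in 850. The genotypes did not overlap, but 140 lay close above the Usp25-/- libraries, and the 3 libraries other than 139 were within 1.08-fold of each other. The Mcl1 log2 fold change of -0.69 (SE 0.49) was -0.10 without 139 and -1.28 without 140. The neutrophil genes were also highest in 139 in 13 of 14 cases. The 14 summed to 829 FPKM in 140, 2326 in 826 and 1364 in 850, with S100a8 and S100a9 the highest in each. The library medians of the 14 had another order than these sums, at 238 FPKM in 139, 11.6 in 140, 14.0 in 826 and 17.3 in 850. Without 139 the median log2 fold change of the 12 tested neutrophil genes was 1.00. The part of the neutrophil genes in the Bcl2a1b and Mcl1 values was not tested.

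Bcl2a1b, Bcl2a1d and Bcl2a1a had a common order of libraries, but their values may not be independent. Of the windows of 100 bases, 58.2% in Bcl2a1d and 43.7% in Bcl2a1a occurred whole in another copy. Bcl2a1d stood at 391, 139, 206 and 122 FPKM and Bcl2a1a at 331, 120, 172 and 111 FPKM in 139, 140, 826 and 850. Each of them, like Bcl2a1b, was highest in 139, then in 826, 140 and 850. Bcl2a1c, on the same chromosome at a distance, was under 1 FPKM in every library and highest in 140. Bcl2a1b stood at 2.67 and 2.39 times Bcl2a1a in Usp25+/+ and at 2.32 and 2.15 times in Usp25-/-. The copies summed to 1605 FPKM in 139, 548 in 140, 779 in 826 and 471 in 850. The sum gave -0.63 (SE 0.64) as its log2 fold change, with a limma adjusted p of 0.960. Mthfs, the gene that shares exons with Bcl2a1b, had another order, at 59.95, 28.3, 11.4 and 18.8 FPKM. It was higher in Usp25+/+ without overlap, as was the ratio of Bcl2a1b to Bcl2a1a. The part of Mthfs reads in that ratio was not tested.

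**Figure D4:**
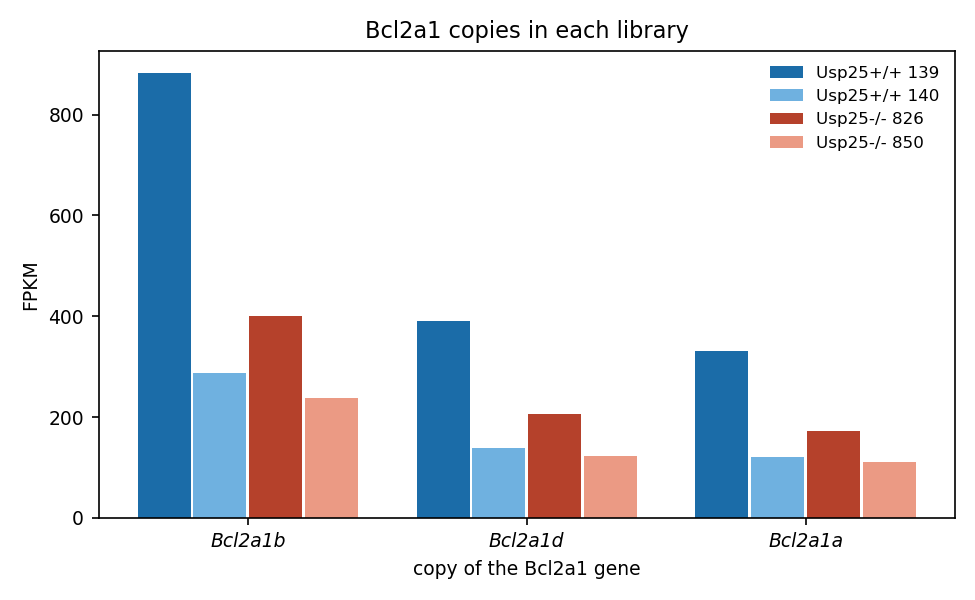
FPKM (y axis from 0) of Bcl2a1b, Bcl2a1d and Bcl2a1a, with 1 bar per library. Each copy is highest in Usp25+/+ 139 and then in Usp25-/- 826, so that the genotypes overlap in all 3.

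Bcl2l1 and Bcl2, the other pro-survival members, were at lower levels, and their genotypes overlapped. Bcl2l1, which encodes BCL-XL and lies on chromosome 2 (bases 152593052 to 152657464, minus strand), measured 78.5 FPKM in 139 and 46.0 in 140, against 48.5 in 826 and 46.8 in 850. The libraries other than 139 were within 1.06-fold of each other, with 140 lowest, so the genotypes overlapped. Its log2 fold change of -0.33 (SE 0.37) was 0.051 without 139 and -0.71 without 140. Bcl2, the founding member, on chromosome 1 (bases 108434755 to 108610851, minus strand), measured 1.98 FPKM in 139 and 0.831 in 140, against 1.77 in 826 and 1.59 in 850. The Usp25-/- values lay between those of the Usp25+/+ libraries, and the log2 fold change of 0.20 (SE 0.39) was 0.55 without 139 and -0.15 without 140. BCL2 is known as a survival factor of lymphocytes, and the summed level of 8 T cell genes was 8.01 to 23.3 FPKM and that of 6 B cell genes 11.5 to 38.4 FPKM, each highest in 850. At the level of Bcl2 the pseudocount of 1 FPKM understates changes. Bcl2 shares 558 of 7191 exon bases with the opposite-strand transcript D630008O14Rik, for which no value is listed. Without strand information their reads cannot be told apart there.

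The effectors differed from each other in pattern. Bak1, on chromosome 17 (bases 27156755 to 27165954, minus strand), measured 26.1 FPKM in 139 and 25.0 in 140, against 17.4 in 826 and 14.5 in 850, with means of 25.5 ± 0.799 and 15.97 ± 2.04 FPKM (SD, n = 2 each). Both Usp25-/- libraries lay below both Usp25+/+ libraries, and the Usp25+/+ libraries were within 1.05-fold of each other. Its log2 fold change of -0.65 (SE 0.28) had the lowest unadjusted limma p of the 10 members, 0.0663, and an adjusted p of 0.960. The value was -0.77 to -0.53 whichever library was left out, and -0.62 without 139. Bak1 shares 357 of 2407 exon bases with the opposite-strand gene Ggnbp1, which did not exceed 0.718 FPKM. Of the listed monocyte and macrophage genes, limma called 0 of 6 tested. All 6 log2 fold changes were negative (median -0.60). In 2 of these genes the genotypes did not overlap with Usp25-/- lower (14.7% of all tested genes). Without 139 the median of the 6 was -0.13, with 2 higher and 4 lower. The summed levels of this list overlapped, at 4054 and 1735 in Usp25+/+ against 1971 and 1273 FPKM in Usp25-/-. Cd14 alone gave 3392 and 673 FPKM of these sums in Usp25+/+, against 1493 and 637 in Usp25-/-. The library medians of the list did not overlap, at 119 and 81.2 FPKM in Usp25+/+ against 59.9 and 62.2 in Usp25-/-. The 5 tested alveolar macrophage genes, a separate list, had a median of -0.26, with 1 higher and 4 lower. They summed to 6663 and 9282 FPKM in Usp25+/+, against 9314 and 6744 in Usp25-/-. Chil3 alone gave 6219 and 8777 FPKM of these sums in Usp25+/+, against 8882 and 6380 in Usp25-/-. The library medians of these genes did not overlap, at 149 and 193 FPKM in Usp25+/+ against 141 and 140 in Usp25-/-. The part of these cells in the Bak1 values was not tested.

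Bax, on chromosome 7 (bases 52717065 to 52722268, minus strand), was instead lowest in 139. It measured 72.5 FPKM in 139 and 103 in 140, against 101 in 826 and 95.1 in 850, so that the genotypes overlapped. The log2 fold change was 0.18 (SE 0.33), -0.074 without 139 and 0.43 without 140. The ratio of Bax to Bak1 FPKM was 2.78 and 4.14 in Usp25+/+ and 5.83 and 6.55 in Usp25-/-, with means of 3.46 ± 0.966 and 6.19 ± 0.508 (SD, n = 2 each). This ratio was singled out after the values were seen, as 1 of 6 that did not overlap among 24 shares and ratios within the family. Another was the share of Bcl2 in the summed family, at 0.109% and 0.104% in Usp25+/+ and 0.2004% and 0.224% in Usp25-/-. The ratio of Bcl2l1 to Bcl2, 39.6 and 55.3 in Usp25+/+ and 27.4 and 29.3 in Usp25-/-, was a further one, and the other 3 set Bcl2a1b against its copies. Of all tested genes, 19% did not overlap with Usp25-/- higher and 14.7% with Usp25-/- lower, so such a count is no mark of the family.

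Among the BH3-only genes, Bid was lower in Usp25-/- without overlap and the other 3 overlapped. Bid, whose protein links death receptors to mitochondria after cleavage by caspase-8, lies on chromosome 6 (bases 120841948 to 120866871, minus strand). It measured 19.1 FPKM in 139 and 10.1 in 140, against 5.86 in 826 and 9.49 in 850, with 140 and 850 close together. Its log2 fold change of -0.81 (SE 0.42, adjusted p of 0.960 in limma) was -0.38 without 139, -1.24 without 140, -0.51 without 826 and -1.12 without 850. Bid shares 628 of 3550 exon bases with Bcl2l13 on the opposite strand, which stood at 3.49 to 5.80 FPKM, and without strand information their reads cannot be told apart there.

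Bcl2l11 and Pmaip1 were both highest in 139. Bcl2l11, which encodes BIM, lies on chromosome 2 (bases 127951774 to 127988283, plus strand) and measured 47.5 FPKM in 139 and 16.1 in 140, against 19.8 in 826 and 14.7 in 850. Its order of libraries was that of Bcl2a1b, and its log2 fold change of -0.67 (SE 0.55) was 0.077 without 139 and -1.42 without 140. The level of Bcl2l11 was 7.23%, 5.58%, 7.25% and 5.49% of that of Mcl1, one of the proteins BIM binds, in 139, 140, 826 and 850. Pmaip1, which encodes NOXA and lies on chromosome 18 (bases 66618258 to 66625204, plus strand), measured 38.3 and 13.6 FPKM in Usp25+/+, against 15.8 and 18.7 in Usp25-/-. Both Usp25-/- libraries lay between the Usp25+/+ libraries, and the log2 fold change of -0.40 (SE 0.52) was 0.32 without 139 and -1.11 without 140.

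Bbc3, which encodes the p53 target PUMA, had nearly equal means in the genotypes. It lies on chromosome 7 (bases 16894965 to 16903554, plus strand) and measured 0.957 FPKM in 139 and 3.47 in 140, against 1.39 in 826 and 3.01 in 850, lowest in 139 and 826. The genotype means were 2.21 ± 1.78 and 2.20 ± 1.15 FPKM (SD, n = 2 each), a difference far smaller than the spread within either genotype. Its log2 fold change of 0.07 (SE 0.53) was -0.53 without 139, 0.66 without 140, 0.44 without 826 and -0.31 without 850.

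Other genes were compared with Bcl2a1b and Bcl2l11, the pro-survival and the pro-death member of widest range on the log2(FPKM + 1) scale. The search covered 7593 other genes whose mean reached 5 FPKM, leaving out symbols of the Gm and Rik kind. Those most like each member in pattern over the 4 libraries were taken by the smallest root mean square difference of centred log2(FPKM + 1). For Bcl2a1b these were Dot1l, a histone methyltransferase, Il17a, a cytokine, Fcrlb, Fem1c and Ankrd33b, with differences of 0.01 to 0.08 log2 units. Dot1l stood at 12.9, 3.47, 5.20 and 2.68 FPKM and Il17a at 11.0, 3.04, 4.68 and 2.37 FPKM in 139, 140, 826 and 850. For Bcl2l11 they were Nfat5, a transcription factor of osmotic stress, Ptprc, which encodes the leukocyte antigen CD45, Cry1, Dmxl2 and again Fem1c, with differences of 0.05 to 0.08. Ptprc stood at 123, 46.4, 51.0 and 43.3 FPKM. With 4 libraries many genes have such a pattern, and the likeness is a description only. Outside library 139, Dot1l and Il17a stood near or under the limit of 5 FPKM. At such levels the pseudocount of 1 FPKM shrinks changes more than at the level of Bcl2a1b, which bears on their small differences from it.

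Other apoptosis genes, in 9 lists of 65 genes, did not pass the test either. Of the 60 tested, limma called 0 after adjustment and 2 by the unadjusted p at 0.05 (3.12% of all tested genes), while 25 were higher and 35 lower, and their median log2 fold change was -0.09. Without overlap 7 were higher and 10 lower, where the shares over all tested genes were 19% and 14.7%. The 2 genes were Bok and Tnf, which are described with their lists.

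The remaining family members went in both directions. Of 5 other pro-survival genes 3 were tested, and their median log2 fold change of -0.53 was set by the Bcl2a1 copies, while Bcl2l2, which encodes BCL-W, was at 0.03 (SE 0.31). Of 5 other pro-death genes 4 were tested, 3 higher and 1 lower. Bok, a relative of BAX and BAK1, measured 6.11 FPKM in 139 and 13.4 in 140, against 61.7 in 826 and 20.4 in 850, highest in 826 and without overlap. Its log2 fold change of 1.86 (SE 0.64, adjusted p of 0.960 in limma) was 1.35 without 139, 2.36 without 140, 1.08 without 826 and 2.63 without 850. Bad, a BH3-only gene controlled by growth factor signalling, measured 9.39 and 29.4 FPKM in Usp25+/+, against 24.2 and 18.2 in Usp25-/-, and Bmf had a log2 fold change of 0.21 (SE 0.38).

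Downstream of the mitochondria, 7 genes of the apoptosome and caspases had a median log2 fold change of 0.13, with 4 higher and 3 lower. Casp6 measured 14.0 and 21.5 FPKM in Usp25+/+, against 26.3 and 27.2 in Usp25-/- without overlap (log2 fold change 0.59, SE 0.32), Apaf1, the scaffold of the apoptosome, had a log2 fold change of -0.54 (SE 0.37) and Casp2 of 0.33 (SE 0.37). The 7 caspase inhibitors and their antagonists had a median of 0.04, 4 higher and 3 lower. Birc3, which encodes the NF-kB target cIAP2, measured 175 and 22.1 FPKM in Usp25+/+, against 24.6 and 22.3 in Usp25-/-, and its log2 fold change of -1.38 (SE 0.95) was 0.08 without 139. Birc5, which encodes survivin and is known from dividing cells, measured 7.72 and 10.9 FPKM in Usp25+/+, against 13.3 and 18.7 in Usp25-/- (log2 fold change 0.72, SE 0.33), and Diablo was at 0.20 (SE 0.35).

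In the death receptor arm 8 of 10 tested genes were lower and 2 higher, with a median of -0.50, or -0.30 without 139. Tnf measured 305 and 69.2 FPKM in Usp25+/+, against 43.7 and 27.1 in Usp25-/-, without overlap, and its log2 fold change of -2.05 (SE 0.75, adjusted p of 0.960 in limma) was -0.99 without 139 and -3.11 without 140. Cflar, which encodes the caspase-8 inhibitor FLIP, measured 89.3 and 14.4 FPKM in Usp25+/+, against 18.8 and 10.5 in Usp25-/-, and Fas at 108 and 21.7 against 23.2 and 23.4 FPKM. Without 139 their log2 fold changes of -1.31 (SE 0.87) and -1.03 (SE 0.76) were -0.03 and 0.10.

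The p53 axis, which controls Bbc3, Pmaip1 and Bax, had a median of 0.09, with 6 of 11 tested genes higher and 5 lower. Phlda3 (0.50, SE 0.70), Sesn2 (-0.46, SE 0.28) and Trp53 itself (0.42, SE 0.36) had the largest absolute log2 fold changes. Of 12 transcription factors known to act on members, 10 were lower and 2 higher, with a median of -0.53 that became 0.05 without 139. Rel, Nfkb2 and Myc had the largest absolute log2 fold changes, at -0.87 (SE 0.60), -0.71 (SE 0.72) and 0.64 (SE 0.37). Rel, the NF-kB subunit known to drive Bcl2a1, measured 31.3 and 9.45 FPKM in Usp25+/+, against 11.5 and 7.12 in Usp25-/-, and its log2 fold change was -0.05 without 139. The ubiquitin system genes known to act on MCL1 (Huwe1, Fbxw7 and Usp9x) had log2 fold changes of -0.09, -0.12 and 0.01, while Vdac1 and Vdac3, channels of the outer mitochondrial membrane, were higher without overlap at 0.44 (SE 0.29) and 0.48 (SE 0.29), and Vdac2, known to hold BAK1 at mitochondria, was at -0.05 (SE 0.33).

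**Figure D5:**
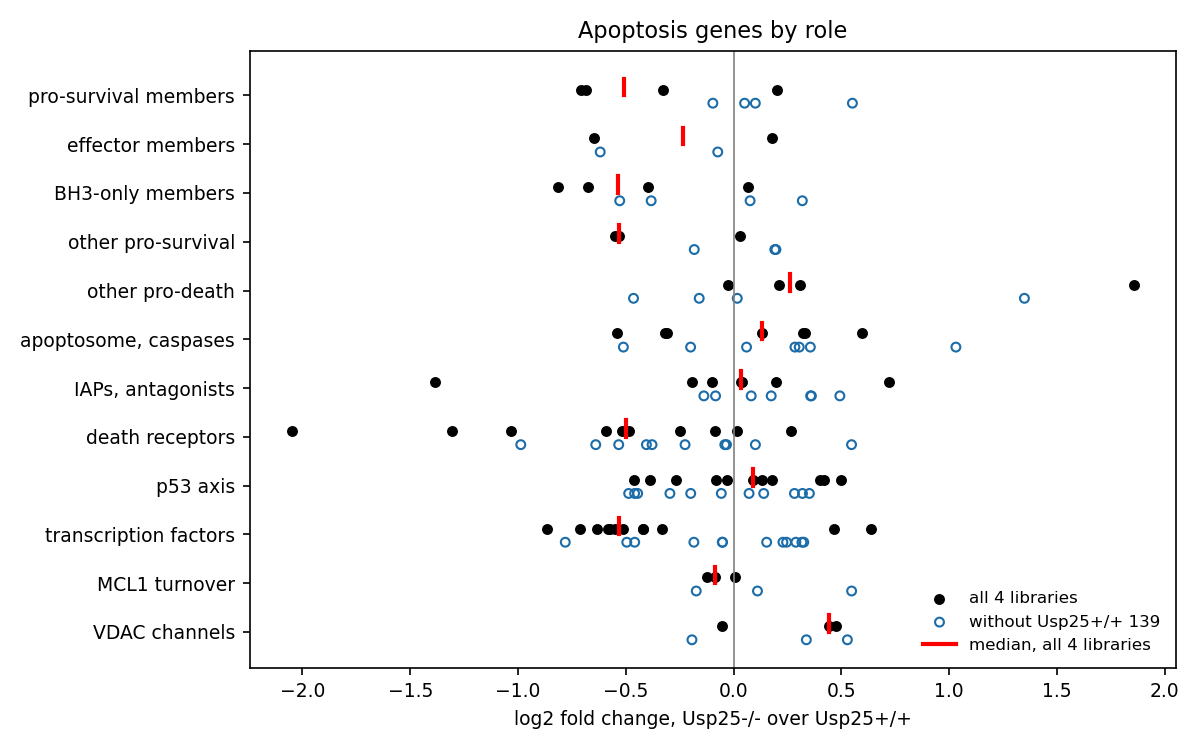
Log2 fold change of Usp25-/- over Usp25+/+ on log2(FPKM + 1) (x axis) of each tested gene by role (rows), with all 4 libraries (black) and without library 139 (open blue), and the median of each row with all libraries (red). The row of transcription factors has its median at -0.53, and without library 139 at 0.05.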

How the data were processed

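Per the labels' protocols, oligo(dT)-purified RNA was sequenced as 100 base read pairs without strand information. Cutadapt, TopHat2 2.1.1, Cufflinks and build mm9 are named in the submitters' processing notes. The sources used here do not give the annotation or the scaling. The authors' deposited values were read as FPKM, since Cufflinks is named, no header gives a unit, and library totals range from 526652 to 565645. The values used here hold no read counts, so the depth of a library is unknown. Because FPKM divides by the library total, abundant genes can lower the rest.

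All calculations used log2(FPKM + 1) of 12011 of 24421 genes, those whose mean reached 1 FPKM; the pseudocount understates changes of low genes. Genotypes, taken from the titles, were compared over separate animals by limma (version 3.58.1, R 4.3.3) with a mean-variance trend, two-sided, adjusted by Benjamini-Hochberg over all tested genes at a threshold of 0.05. The script was tested on simulated data. The 10 members, the lists and the tests were chosen with earlier results of these data known. By rule all 10 members are described, and from each list the 3 tested genes of largest absolute log2 fold change. The sum of the Bcl2a1 copies and the choice of ratios followed after values were seen. Coordinates and transcripts are those of GENCODE vM1, made on NCBIM37 (mm9). Other pseudocounts, filters, scalings and variance models were tried, as was leaving out each library.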

Additional observations from a re-analysis of the deposited data

How the results depend on the processing

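Under other pseudocounts, filters, scalings and variance models, all 89 values kept their direction and none passed the adjusted threshold. The 89 include the fit of the summed Bcl2a1 copies. Filters and variance models do not alter the fold change of a member, so under them the direction could not turn. At an unadjusted p of 0.05 the member count was 0 in these fits except 1, Bak1, with no filter on low values. Without 140 it was 6. The limma p of Bak1 without the filter was 0.0173 unadjusted and 0.857 adjusted. The summed Bcl2a1 copies, an alternative chosen after seeing the data, gave -0.63. Leaving out 1 library turned the direction of 7 members. Over these fits the log2 fold change ranged from -0.15 to 0.55 for Bcl2, from -0.71 to 0.051 for Bcl2l1, from -1.51 to 0.10 for Bcl2a1b, from -0.074 to 0.43 for Bax, from -1.42 to 0.077 for Bcl2l11, from -0.53 to 0.66 for Bbc3 and from -1.11 to 0.32 for Pmaip1. The sign turned without 139 for 6 of them, without 140 for Bcl2, and without 850 as well for Bbc3 (-0.31). The cause was not tested. The median of the members ranged from -0.91 to -0.01. The difference in pro-survival share, -3.69 percentage points, was 1.49 without 139 and -8.88 without 140. Limma called 0 genes in each fit after adjustment, and at an unadjusted p of 0.05 it called 227 to 899 with all libraries and 108 to 2593 with 1 left out, where the lone library is taken to vary like the others. No paired analysis was possible because the genotypes share no animal number. Low values of Bcl2 and Bbc3 and the unknown depth limit what can be said of them.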
